A study of Mus musculus with 16 samples.

Results

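Crym encodes mu-crystallin, a cytosolic protein that binds triiodothyronine, the active thyroid hormone. It is described here with 5 genes of the same hormone pathway. Thra and Thrb encode the nuclear receptors, Dio2 the deiodinase that makes the active hormone, and Hr and Klf9 a corepressor and a transcription factor that the hormone is known to induce. The 6 genes were taken by symbol, and all 6 were present among the 24972 gene symbols listed for each of 16 bulk RNA-seq libraries of mouse hippocampus.

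The libraries came from 6 adult mice of the genotype ArcCreERT2::eYFPflx, which carry a tamoxifen-dependent Cre under the control of Arc and a Cre-dependent yellow fluorescent reporter. Both groups shared this genotype. Trained mice learned the active place avoidance task, in which a sector of a rotating arena is paired with shock, and untrained mice explored the same arena with the shock off. Tissue of the dentate gyrus (DG), CA3 and CA1 was microdissected from the dorsal hippocampus after a retention test and pooled by subregion within each mouse. There were 3 trained and 3 untrained libraries of CA1, 3 and 2 of CA3, and 3 and 2 of the DG. The 3 trained mice and 3 untrained mice thus each gave up to 3 libraries, and the subregions are not independent sets of animals. The comparison of trained with untrained mice addressed which transcripts differed after avoidance training and the retention test. Only trained mice had received shock, so it cannot tell apart recall, learning and shock. The comparison of subregions addressed where in the hippocampus each was expressed.

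As background, the thyroid gland releases mainly thyroxine, a prohormone. In the brain, thyroxine enters through transporters such as Slco1c1, and Dio2, an enzyme found mostly in astrocytes, removes an iodine atom to give triiodothyronine. Bound by its receptors, the hormone displaces corepressors such as Ncor1 and recruits coactivators, and in neurons it raises the transcription of targets such as Hr and Klf9. Mu-crystallin holds the hormone in the cytosol and also acts as a ketimine reductase in lysine breakdown.

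The deposited values are estimated counts scaled between libraries, given here as normalized values. They summed to between 7607326 and 7984931 per library, and the spacing of the low values implied about 2980000 to 14940000 reads. On that estimate, Crym rested on 116 to 1477 reads per library, Thra on 1847 to 8830 and Hr on 45 to 232. A difference was called when its adjusted p in limma was under 0.05. Log2 fold changes were taken on log2(value + 2), which matters little at the level of these genes.

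The labels of subregion and animal were checked before any comparison. Most of the 6 markers of DG granule cells, the principal neurons of the DG, were as high in CA1 and CA3 as in the DG: the median of Prox1, their defining transcription factor, was 3576 in CA1, 3902 in CA3 and 3367 in the DG. Only C1ql2 and Tdo2 had their highest median in the DG. Tdo2 was 40.2 to 89.5 in CA1 and 93.0 to 105 in the DG, without overlap. None of the 6 was called between any pair of subregions. The 6 CA1 pyramidal markers were above 0 in every library, and 5 of the 6 were called higher in CA1 than in CA3, against 1 of the 6 for CA1 against the DG. Of the 6 CA3 pyramidal markers, Cpne4 and Grik4 were called lower in CA1 than in CA3 and than in the DG. No CA1, CA3 or granule marker was called between CA3 and the DG. Of all genes, 0.988%, 4.05% and 0.00682% were called for CA1 against CA3, CA1 against the DG and CA3 against the DG. The subregion names below are therefore those of the labels. Xist, the transcript of the inactive X chromosome, lay between 7601 and 19592 in the 9 trained libraries and between 25.5 and 52.4 in 6 of the 7 untrained ones. The remaining untrained library, CA3 untrained 1, had Xist at 10588 together with the Y-linked Ddx3y at 201, and DG trained 3 likewise combined Xist at 7601 with Ddx3y at 255. CA1 trained 1, CA1 trained 3 and CA3 trained 3 also combined abundant Xist with Ddx3y, at 70.9, 101 and 92.9, against 1.7 to 12.9 in the other trained libraries, so 5 libraries in all held both. Per the methods, each condition had mice of both sexes, and these values do not match that. Training and the sex-linked transcripts cannot be told apart in most libraries. By its label, CA3 untrained 1 comes from the same mouse as CA1 untrained 1 and DG untrained 1, where Xist was 26.1 and 25.5. These libraries do not match as tissue of 1 mouse. Whether animals or subregions were mixed was not tested, and every value by training or subregion rests on the labels as given. Results that leave out a mouse or use it as a block rest on the mouse labels too. Training results of Crym, Klf9 and Dio2 in CA3 and the DG are also given without CA3 untrained 1 or DG trained 3, and the pooled calls of the members without the libraries holding both. In bulk tissue, fewer cells of a type and less RNA per cell cannot be told apart.

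RefSeq promoter sequence (GRCm38.p6) was at hand for Dio2, Klf9 and Thrb. The 250 bases upstream of the start sites of Dio2 and Klf9, the members called once training was compared over the pooled subregions, are printed 5′ to 3′ on the strand of the gene. Dio2 lies on chromosome 12 (minus strand, 90724552 to 90738438 in GENCODE) and its RefSeq start lies upstream of that annotated end, at 90739038. Klf9 lies on chromosome 19 (plus strand, 23141226 to 23168134). Each window ends at the base before the RefSeq start. Capitals mark matches to the motifs searched on both strands.
Dio2, chr12:90739039-90739288: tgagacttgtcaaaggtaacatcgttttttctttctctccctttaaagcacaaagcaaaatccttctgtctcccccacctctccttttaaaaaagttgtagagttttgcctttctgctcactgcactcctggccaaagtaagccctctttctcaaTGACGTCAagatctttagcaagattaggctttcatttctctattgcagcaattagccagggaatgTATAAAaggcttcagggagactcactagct
Klf9, chr19:23140976-23141225: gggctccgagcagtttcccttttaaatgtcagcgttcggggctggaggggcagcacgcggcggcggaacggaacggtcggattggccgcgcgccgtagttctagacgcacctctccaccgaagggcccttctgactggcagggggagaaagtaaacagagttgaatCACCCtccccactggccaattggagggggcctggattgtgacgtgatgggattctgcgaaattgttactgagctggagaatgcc
The Dio2 window held the cyclic AMP response element TGACGTCA, which occurs in 1.79% of 32851 mouse promoter windows, and a TATA box (TATAAA, 13.6%). The Klf9 window held a CACCC box, a sequence present in 57.5% of windows. Neither held AGGTCA, the core motif bound by thyroid hormone receptors (16.3% of windows), nor a direct repeat of it with a spacing of 4 bases (0.0152%), nor GGGCGG or AGAACA (35.7% and 19.0%). A window at the upstream start of Thrb held 1 AGGTCA, beginning 184 bases before the start site. Each share was counted over windows of 300 bases, the last 50 of them downstream of the start.

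Divided by the length of their annotated exons, the 6 genes kept a wide spacing of levels. Thra averaged 1010 per kb over the 16 libraries and was the most abundant, ahead of Klf9 at 303 per kb. Dio2 and Crym followed at 136 and 135 per kb, a difference much smaller than the spread of Crym. Thrb averaged 50.2 per kb and Hr 16.2 per kb. Thra thus stood above Thrb in every library on this scale. The lower part of the order depended on the length used, since with the median transcript length in place of the exon union Thrb averaged 470 per kb, above Crym at 226 and Dio2 at 136.

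Crym was the member that differed most between libraries, with a coefficient of variation of 43.2% over the 16, against 5.82% for Thra and 8.79% for Dio2. In the DG, its normalized value was 628, 702 and 638 in trained mice 1, 2 and 3, and 306 and 217 in untrained mice 1 and 3. The groups did not overlap, as was so for 35.6% of genes in the DG, and the lowest trained value lay well above the higher untrained one. The log2 fold change was 1.34 ± 0.13 (SE), with a 95% interval of 1.07 to 1.61 and an adjusted p of 0.000207, and Crym ranked 2 of 13935 genes by p. It was the only member called in the DG, where 3.39% of all genes were called. Without DG trained 3, the log2 fold change was 1.36 (adjusted p = 0.000445). A fit of all 16 libraries gave 1.34 with an adjusted p of 0.162. With the number of genes at 0 or the sex-linked transcripts as a term in that fit, the difference was 0.93 and 2.58 (adjusted p of 0.617 and 0.187).

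CA3 showed a different spread. Crym was 289, 811 and 771 in CA3 trained 1, 2 and 3, and 179 and 482 in CA3 untrained 1 and 2. Trained mice 2 and 3 lay above both untrained mice, but trained mouse 1 lay between them, so the groups overlapped. The difference of 0.94 had a 95% interval of -1.50 to 3.37 (adjusted p = 0.644), and it was 0.23 without CA3 untrained 1, 1.64 without CA3 untrained 2 and 1.42 without CA3 trained 1 (adjusted p of 0.969, 0.534 and 0.429). In a fit of all 16 libraries with the summed markers of DG granule cells as a term, the sign turned, at -0.42. No member was called in CA3, where limma called 0.852% of all genes and 15.8% had an unadjusted p under 0.05. Of the members, Dio2 and Klf9 were among those with an unadjusted p under 0.05.

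In CA1, Crym was 368, 314 and 417 in trained mice and 364, 337 and 515 in untrained mice. These values lay within one range, and the highest came from an untrained mouse. The difference was -0.13 ± 0.16 (adjusted p = 0.732), with an interval of -0.50 to 0.24 on the log2 scale. No member was called in CA1, where 5.23% of all genes were called and 18.9% had an unadjusted p under 0.05. Klf9 alone among the members fell in the latter share.

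**Figure D1:**
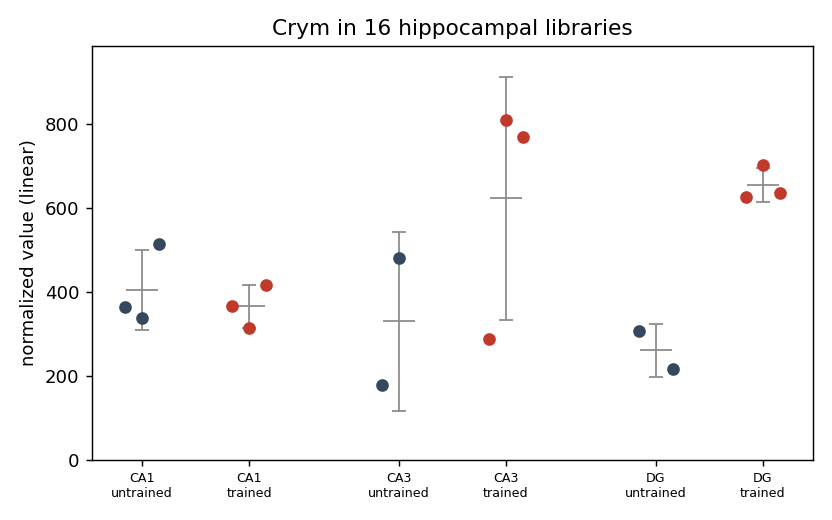
Normalized value of Crym (y axis, linear, from 0) in each library by labelled subregion and training (x axis). Points are libraries, and the bar and whiskers give the mean and SD of each group. The 3 DG trained libraries sit between 628 and 702, above both DG untrained libraries, while the CA3 groups overlap and the CA1 groups share a range.

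Ordered by group mean, Crym ran from 656 ± 40.4 (SD, n = 3) in trained DG through 623 ± 291 (n = 3) in trained CA3, 405 ± 95.9 (n = 3) in untrained CA1, 366 ± 51.5 (n = 3) in trained CA1 and 331 ± 214 (n = 2) in untrained CA3 to 261 ± 63.3 (n = 2) in untrained DG. Each neighbouring pair in this order overlapped in its library values. The DG thus held both ends of the range, and averaged over training, no difference of Crym between subregions was called. The log2 differences were -0.10 for CA1 against CA3, -0.11 for CA1 against the DG and -0.01 for CA3 against the DG, with adjusted p of 0.968, 0.900 and 0.997. The training difference itself was 1.47 lower in CA1 than in the DG on the log2 scale, with an interval of -2.91 to -0.03 and an adjusted p of 0.270. A difference between subregions in the response of Crym was therefore not shown at this threshold, and 2.75% of genes were called in that test and 17.8% had an unadjusted p under 0.05, Crym among them. The corresponding differences of CA1 from CA3 and of CA3 from the DG were -1.07 and -0.40 for Crym (adjusted p of 0.806 and 0.873), in tests that called 0.0273% and 0.164% of genes. On leaving out 1 mouse, the difference of CA1 from CA3 ran from -1.89 to -0.42. Training pooled over the subregions gave 0.65 ± 0.31 (adjusted p = 0.206). This was 0.42 without untrained mouse 1 (adjusted p = 0.593), 0.008 with the granule marker sum as a term (adjusted p = 0.986) and 1.61 with the sex-linked transcripts (adjusted p = 0.397).

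The level of Crym ran opposite to that of the granule cell markers. The summed value of the 6 markers was 9239, 9068 and 8777 in the DG of trained mice 1, 2 and 3 and 10993 and 11237 in untrained mice 1 and 3. In CA3, trained mice 2 and 3, with the highest Crym of the series, had the lowest sums, 7786 and 7356, and CA3 untrained 1, with the lowest Crym, had the highest, 12683. Over the 16 libraries, Pearson's r between Crym and this sum was -0.90. The points share 6 mice and a common scaling. None of the 6 markers was at 0 in any library. Of these markers, Stxbp6 and Prox1 were called lower in the trained DG, by 0.43 and 0.31 on the log2 scale. With the logarithm of the sum as a term in a fit of all 16 libraries, added after the data had been seen, the DG difference of Crym was 0.43 (adjusted p = 0.425). The fit of all 16 libraries without that term gave 1.34 with an adjusted p of 0.162.

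Other marker sums also separated the DG groups. The summed value of 4 thalamic markers was 278 to 314 in trained DG and 435 and 514 in untrained DG, and its r with Crym was -0.88. Sums of endothelial markers (725 to 814 in trained, 917 to 1011 in untrained DG), subiculum markers (167 to 210 and 250 to 327) and oligodendrocyte markers (14040 to 15210 and 15880 to 20350) were also lower in trained DG without overlap. The interneuron sum was higher without overlap (3581 to 3748 and 3210 to 3493). Called lower in the trained DG were 2 of 4 thalamic markers, Prkcd and Slc17a6, 1 of 6 endothelial markers, Flt1, and 1 of 2 subiculum markers tested, again Slc17a6, where 3.39% of all genes were called. No oligodendrocyte or interneuron marker was called. The sums of CA1 and CA3 pyramidal markers had r of 0.04 and 0.36 with Crym. The part of the marker differences in the result for Crym was not tested beyond the fit given.

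**Figure D2:**
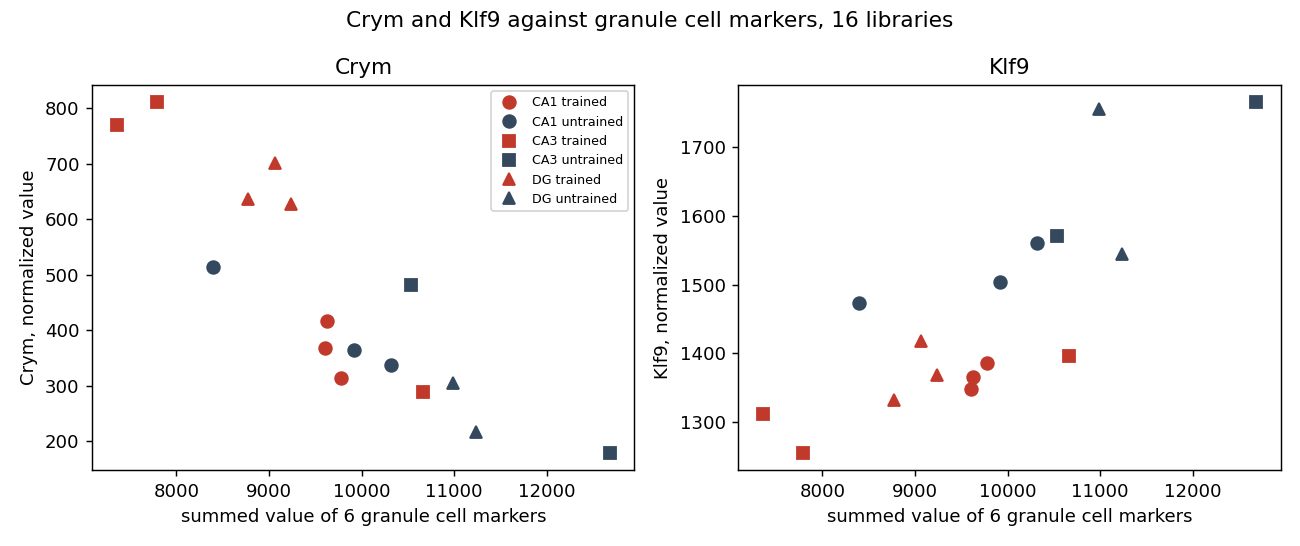
Normalized value of Crym (left) and Klf9 (right) on the y axis against the summed normalized value of 6 granule cell markers (x axis), 1 point per library, with symbols for the labelled subregion and colors for training. Crym falls and Klf9 rises along the axis, with Pearson's r of -0.90 and 0.80 over 16 libraries; neither y axis starts at 0.

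Klf9 is a Krüppel-like transcription factor that both triiodothyronine and glucocorticoids induce in neurons. In CA1, it was 1348, 1386 and 1365 in trained mice and 1503, 1560 and 1473 in untrained mice. In CA3, it was 1396, 1256 and 1312 in trained mice 1, 2 and 3 and 1764 and 1571 in untrained mice 1 and 2. In the DG, it was 1369, 1419 and 1333 in trained mice and 1755 and 1544 in untrained mice. The trained libraries lay below the untrained ones in all 3 subregions, where 24.0% of genes in CA1, 33.9% in CA3 and 35.6% in the DG separated in either direction, and all 9 trained libraries lay below all 7 untrained ones. Of 14673 genes, 1.29% were lower without overlap within each of the 3 subregions, and 0.436% were lower in all 9 against all 7. The 9 and the 7 libraries each came from 3 mice, so they are repeated measures.

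The log2 fold change of Klf9 was -0.14 ± 0.06 in CA1, -0.33 ± 0.08 in CA3 and -0.26 ± 0.07 in the DG, with adjusted p of 0.151, 0.0900 and 0.0606, none of them past the threshold. In a fit of all 16 libraries, which shares 1 estimate of the spread, the adjusted p was 0.0126 in CA3 and 0.0451 in the DG. Without CA3 untrained 1 the CA3 value was -0.25, and without CA3 trained 1 it was -0.37, and called (adjusted p = 0.0286). The fit of all 16 libraries also called Klf9 in CA3 with genes at 0 or the sex-linked transcripts as a term (adjusted p of 0.00908 and 0.0347). Without DG trained 3 the DG value was -0.24 (adjusted p = 0.209). The DG value was -0.17 without DG untrained 1 (adjusted p = 0.242) and -0.35, and called, without DG untrained 3 (adjusted p = 0.00661). Pooled over the subregions, Klf9 fell by 0.24 ± 0.04 on the log2 scale, with an interval of -0.33 to -0.15 and an adjusted p of 0.00117. This pooled test uses the same libraries as the comparisons within subregions, so it is no separate evidence. It treated the 16 libraries of 6 mice as independent. It called 10.3% of all genes, and 2 of the 6 members, Klf9 and Dio2. Klf9 stayed called without CA3 untrained 1 and DG trained 3, at -0.20 (adjusted p = 0.00882), and with the granule marker sum as a term, at -0.17 (adjusted p = 0.0188), but not without all 5 libraries that held Xist and Ddx3y, at -0.21 (adjusted p = 0.0541). Its r with the granule sum was 0.80. With the sex-linked transcripts as a term, the pooled difference was -0.39 and the call was lost (adjusted p = 0.111). CA3 untrained 1, the untrained library with abundant Xist, had the highest Klf9 of the 16.

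Dio2, which supplies the active hormone from astrocytes, was called lower in the pooled comparison, as Klf9 was. In CA3, it was 781, 670 and 640 in trained mice and 898 and 849 in untrained mice, with no overlap. In the DG, it was 767, 748 and 791 in trained mice and 832 and 816 in untrained mice, again with no overlap but with a narrow gap. In CA1, it was 827, 749 and 757 in trained mice and 775, 870 and 858 in untrained mice, where the groups overlapped. Separation of this kind was common within such small groups, as the shares given for Klf9 show.

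The log2 fold change of Dio2 was -0.33 ± 0.10 in CA3 (adjusted p = 0.135), or -0.29 without CA3 untrained 1 (adjusted p = 0.580). It was -0.10 ± 0.08 in the DG (adjusted p = 0.516), or -0.12 without DG trained 3 (adjusted p = 0.601), and -0.10 ± 0.07 in CA1 (adjusted p = 0.484). Dio2 in CA3 was called without trained mouse 1 (-0.41, adjusted p = 0.0190) and in a fit of all 16 libraries (adjusted p = 0.0334). In that fit it was also called with the number of genes at 0 as a term (adjusted p = 0.0239). The pooled comparison, with libraries of 1 mouse treated as independent, gave a fall of 0.17 ± 0.05 with an adjusted p of 0.0321. Without CA3 untrained 1 and DG trained 3 this was -0.15 (adjusted p = 0.103), without all 5 libraries that held Xist and Ddx3y -0.16 (adjusted p = 0.163), and with the granule marker sum as a term -0.09 (adjusted p = 0.326). The call was also lost on leaving out untrained mouse 1 or 2 or trained mouse 2 or 3, with adjusted p of 0.110, 0.128, 0.164 and 0.0793, and kept without trained mouse 1 or untrained mouse 3 (adjusted p of 0.0233 and 0.0361). The summed value of 7 astrocyte markers ranged from 56100 to 65290 in trained and from 56540 to 62980 in untrained CA3, and its r with Dio2 was 0.32, against 0.75 for the granule sum. Most of that sum is Slc1a2, the glutamate transporter gene, at 43120 to 51400 in CA3. Of the 7 markers, Aqp4, the astrocytic water channel gene, and Gja1, a gap junction gene, were called lower in the pooled comparison, by 0.30 and 0.18 (adjusted p of 0.00512 and 0.0300), and the other 5 were not called. That comparison called 10.3% of all genes, and 3 of the 7 markers had a log2 fold change above 0. In CA3, Aqp4 was at -0.46 and Gja1 at -0.31 (adjusted p of 0.0678 and 0.117), while 3 of the 7 markers were above 0 and the median was -0.105. Their part in the result for Dio2 was not tested. Across libraries, Dio2 and Klf9 had r of 0.75 with each other and -0.65 and -0.70 with Crym.

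**Figure D3:**
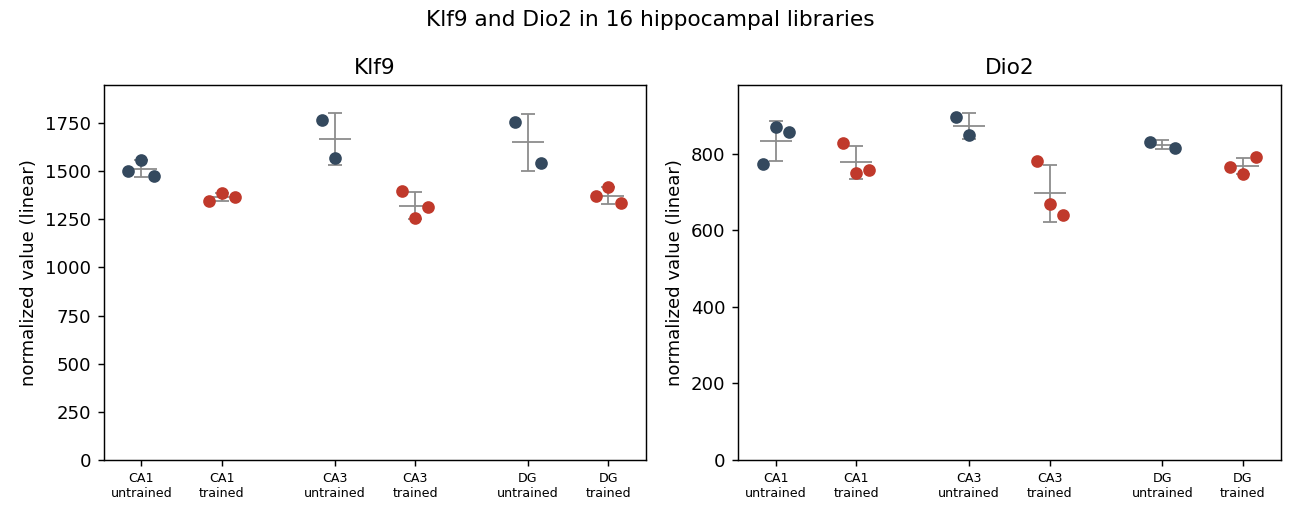
Normalized values of Klf9 and Dio2 (y axes, linear, from 0) in each library by labelled subregion and training. Points are libraries, and bars and whiskers give the group mean and SD. Klf9 is lower in trained libraries in each subregion without overlap, and Dio2 in CA3 and the DG.

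Neither receptor gene was called with training in any comparison. Thra was 4519, 4759 and 4396 in trained CA1 against 4749, 4283 and 4785 in untrained CA1, and 4454, 5026 and 5185 in trained DG against 4875 and 4911 in untrained DG. In CA3, it was 4537, 4790 and 4609 in trained and 4423 and 4231 in untrained mice, where trained values lay above without overlap, as 33.9% of genes separated there in either direction. Its log2 fold changes were -0.01 in CA1, 0.10 in CA3 and -0.01 in the DG, the pooled value was 0.02, and the pooled interval of -0.06 to 0.10 bounds a change of Thra more tightly than that of any other member. The 3′ end of Thra overlaps the antisense gene Nr1d1, a circadian repressor, by 1075 bases. The strand setting of the counting is not given in the sources used here, so reads of that stretch may have been counted for either gene, and the value of Thra carries this uncertainty. Nr1d1 had values of 547 to 782 and was not called in any of these comparisons, with a pooled log2 fold change of -0.10 (adjusted p = 0.209).

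Thrb was the member that differed between subregions. It was 411, 384 and 405 in trained and 424, 411 and 461 in untrained CA1. In CA3, it was 326, 372 and 331 in trained and 374 and 306 in untrained mice, and in the DG 370, 346 and 351 in trained and 314 and 362 in untrained mice. Every CA1 library lay above every CA3 and every DG library, as was so for 0.0954% of 14673 genes. Averaged over training, Thrb was higher in CA1 by 0.28 ± 0.07 than in CA3 (adjusted p = 0.0384) and by 0.26 ± 0.07 than in the DG (adjusted p = 0.0313), and CA3 and the DG differed by -0.03 (adjusted p = 0.970). It was the only member called in these tests, which called 0.988% and 4.05% of all genes. Between CA3 and the DG, 0.00682% of genes and no member were called; 6.86% of genes had an unadjusted p under 0.05, and of the members Thra did, at -0.12 (adjusted p = 0.606).

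With the animal as a block, the difference of Thrb between CA1 and CA3 was 0.25 (adjusted p = 0.0709), and that between CA1 and the DG was 0.30 (adjusted p = 0.0157). With the trained libraries alone, the differences were 0.22 and 0.17 (adjusted p of 0.449 and 0.291), and with the untrained alone 0.35 and 0.35 (0.296 and 0.112). On leaving out 1 mouse at a time, the call against CA3 was kept only without untrained mouse 1 (adjusted p = 0.0205) and otherwise lost, with adjusted p of 0.0633 to 0.317. The call against the DG was lost without untrained mouse 1 or trained mouse 1, 2 or 3 (adjusted p of 0.119, 0.0745, 0.113 and 0.108). The r of Thrb was 0.83 with the sum of the CA1 pyramidal markers and -0.74 with that of the CA3 markers. The CA1 marker sum itself was 1898 to 2352 in trained and 3590 to 5709 in untrained CA1, beside Thrb values of 384 to 411 and 411 to 461. The training difference of Thrb in CA1 was -0.11 ± 0.08 (adjusted p = 0.521), and it was 0.02 in CA3 and 0.08 in the DG.

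Hr, a corepressor named for the hairless phenotype of its mutants, was the least abundant member. It was 93.6, 121 and 106 in trained CA1, 91.5, 103 and 137 in untrained CA1, 129, 102 and 121 in trained CA3, 143 and 103 in untrained CA3, 118, 93.8 and 105 in trained DG and 120 and 111 in untrained DG. The groups overlapped in every subregion. Its log2 fold changes were -0.03, -0.06 and -0.14 in CA1, CA3 and the DG, and the pooled value was -0.07 with an interval of -0.27 to 0.13. This interval includes the pooled change of Klf9, so a fall of that size in Hr was neither shown nor bounded away.

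**Figure D4:**
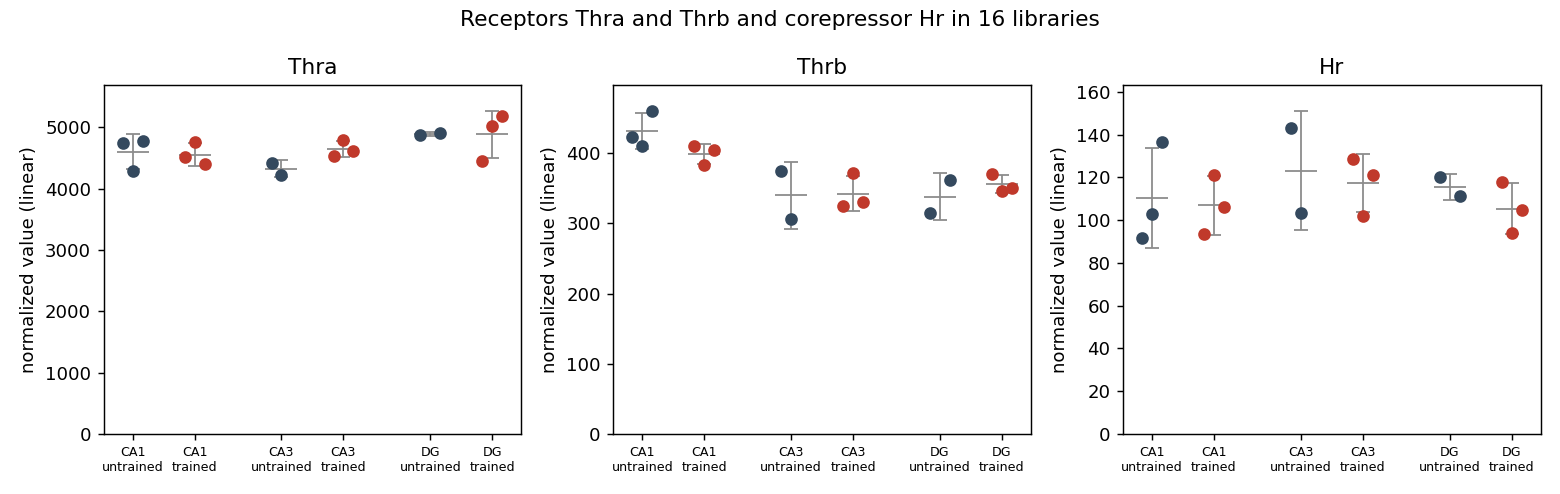
Normalized values of Thra, Thrb and Hr (y axes, linear, from 0) in each library by labelled subregion and training. Points are libraries, and bars and whiskers give the group mean and SD. Every CA1 library of Thrb sits above the CA3 and DG libraries, and Thra and Hr show no such order.

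**Figure D5:**
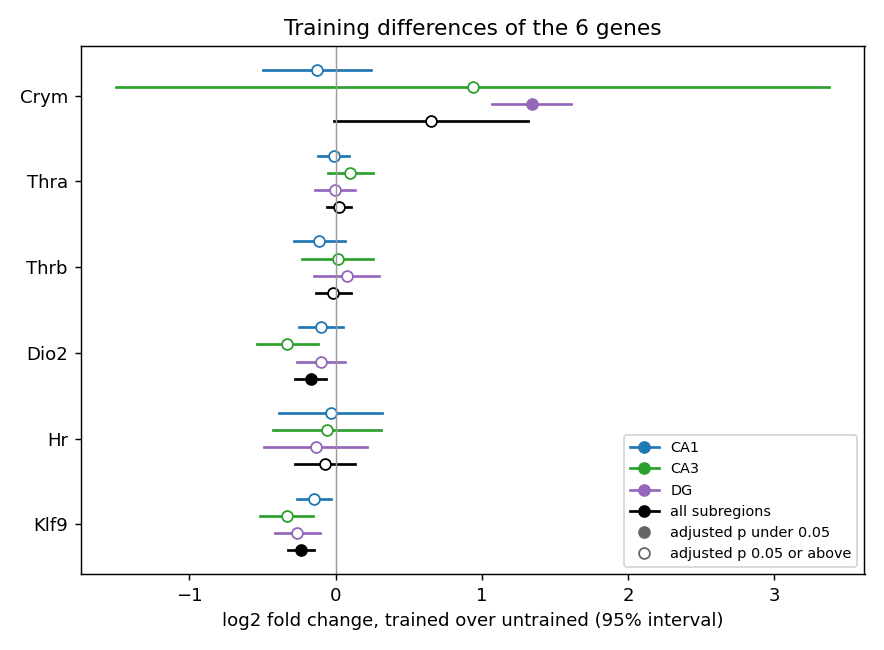
Log2 fold change of trained over untrained libraries (x axis) for the 6 genes in each subregion and pooled over subregions, with 95% intervals from limma. Filled points have an adjusted p under 0.05, which holds for Crym in the DG and for Dio2 and Klf9 in the pooled fit. The widest interval is that of Crym in CA3.

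Genes whose pattern over the 16 libraries was most like that of Crym were Atp6ap2, a subunit associated with the vacuolar proton pump (r = 0.933), Ldha, a lactate dehydrogenase subunit (r = 0.906), the receptor tyrosine kinase gene Kit (r = 0.903), Gnai1, an inhibitory G protein subunit (r = 0.901), and E330009J07Rik (r = 0.886), out of 14673 genes ranked. The genes nearest to Klf9 were Pnrc1 (0.942) and Cap2 (0.918), and those nearest to Dio2 were Sox11 (0.896) and Lct (0.893), the latter one of the granule cell markers. Thrb lay nearest to Nov (0.925) and Ndst3 (0.922). Thra and Hr had no neighbor above 0.80, with Rnf208 (0.782) among the nearest of the former and Abl1 (0.795) among those of the latter.

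Around these members stood 86 further genes in 8 lists: transport and metabolism of the hormone, receptor partners, corepressors, coactivators, known target genes in brain, lysine and ketimine metabolism, the Klf family and glucocorticoid-responsive genes. Training called 6 higher and 5 lower of 79 tested in CA1, 0 and 1 of 79 in CA3, 0 and 2 of 80 in the DG, and 8 and 6 of 81 in the pooled comparison. Of all genes, 5.23%, 0.852%, 3.39% and 10.3% were called in the same tests. The pooled median of log2 fold change over the lists was -0.04, against -0.01 over all genes. With the sex-linked transcripts as a term, no gene at all was called with training in CA1 or in the pooled comparison. Every CA1 and pooled training call given below was thus lost with that term.

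Among transporters and enzymes, the pooled comparison called 1 of 10 tested, a share close to the 10.3% of all genes. Slc7a5, an amino acid transporter that also carries thyroid hormones, rose by 0.26 ± 0.06 (adjusted p = 0.00440), a call lost without trained mouse 2 (adjusted p = 0.0593). Slco1c1, a thyroxine transporter, was at -0.15 (adjusted p = 0.211). It was higher in CA1 than in the DG by 0.38 ± 0.09 (adjusted p = 0.0170), a call lost without untrained mouse 2 or 3 or trained mouse 2 (adjusted p of 0.0548, 0.0711 and 0.119). Ttr, the thyroxine carrier of the choroid plexus, fell by 3.29 ± 0.16 in CA3 (adjusted p = 7.26e-06), where it was 66.2 to 72.4 in trained and 560 to 834 in untrained mice. Without CA3 untrained 1 the log2 difference of Ttr was -3.57 (adjusted p = 2.75e-05), and in a fit of all 16 libraries the adjusted p was 0.216. The summed value of 6 choroid plexus markers, Ttr among them, was 237 to 325 and 824 to 1131 in the same libraries. The inactivating deiodinase gene Dio3 had a median of 3.46 over the 16 libraries, too low for a comparison.

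Of 8 corepressors, none was called in the pooled comparison. Of 11 coactivators, 10 had a pooled log2 fold change below 0, as did 52.2% of all genes, and 3 were called, all lower, where 10.3% of all genes were called. Ncoa6 fell by 0.25 ± 0.05 (adjusted p = 0.00124) and Ncoa3 by 0.25 ± 0.05 (adjusted p = 0.00415), with Ncoa1 as the third. In the DG, all 11 were below 0, as were 49.9% of all genes, with a median of -0.13 against 0.00, and Ncoa6 and Crebbp passed the test, falling by 0.44 and 0.27 (adjusted p of 0.00531 and 0.0347). Without DG trained 2 the call of Ncoa6 was lost (adjusted p = 0.0592), and that of Crebbp was lost without untrained mouse 3 or trained mouse 1, 2 or 3 (adjusted p of 0.0524, 0.161, 0.0867 and 0.155). The pooled call of Ncoa3 was lost without untrained mouse 1 (adjusted p = 0.0600). Among receptor partners, Rara, a retinoic acid receptor gene, was lower in trained CA1 by 0.70 ± 0.17 (adjusted p = 0.0201), a call lost without untrained mouse 3 or trained mouse 1 (adjusted p of 0.0938 and 0.0892).

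Known targets of the hormone in brain were called in both directions. In CA1, 4 of 17 were called higher and 2 lower, where 5.23% of all genes were called. The sum of CA1 pyramidal markers, given with Thrb, also separated these CA1 groups, and its part in these calls was not tested. Nrgn, a calmodulin-binding postsynaptic protein gene, rose by 0.50 ± 0.09 (adjusted p = 0.0157). In a fit of all 16 libraries its adjusted p was 0.0855. With the sex-linked transcripts as a term in that fit, its value was 0.19 (adjusted p = 0.893). The neurofilament genes Nefm and Nefl rose by 0.28 and 0.20 (adjusted p of 0.0136 and 0.0157). Homer1, a postsynaptic scaffold gene with an activity-induced short form, fell in trained CA1 by 0.59 ± 0.07 (adjusted p = 3.17e-05), and Reln, a secreted guide of neuronal positioning, by 0.25 (adjusted p = 0.0204). The calls of Nefm, Nefl and Reln were each lost without untrained mouse 1 or trained mouse 2, and those of Nefl and Reln also without trained mouse 1, with adjusted p of 0.0691 to 0.106. Nefl also rose in the pooled comparison, by 0.23 ± 0.04 (adjusted p = 0.00108), and was lower in CA1 than in the DG, by 0.28 (adjusted p = 0.00241).

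Mu-crystallin's other setting is lysine breakdown. Of 4 genes tested there, the pooled comparison called Aass, whose product opens the main route of lysine breakdown, at 0.57 ± 0.13 (adjusted p = 0.00802). Its values ran from 36.7 to 62.2 in the 9 trained libraries and from 21.8 to 36.8 in the 7 untrained ones. The 13 other Klf genes tested gave no call in any training comparison, and 9 of them had a pooled log2 fold change below 0, as did 52.2% of all genes. Glucocorticoids also induce Klf9. Among 11 other glucocorticoid-responsive genes, 2 were called higher and 2 lower in the pooled comparison, where 10.3% of all genes were called: Tsc22d3 and Ddit4, both induced by glucocorticoids, rose by 0.33 ± 0.06 and 0.33 ± 0.07 (adjusted p of 0.000854 and 0.00304), while the mineralocorticoid receptor gene Nr3c2 fell by 0.18 ± 0.04 (adjusted p = 0.00549) together with the glucocorticoid receptor gene Nr3c1. The call of Ddit4 was lost without untrained mouse 1 (adjusted p = 0.0548). Nr3c2 also fell in trained CA1, by 0.24 ± 0.06 (adjusted p = 0.0170), a call lost without untrained mouse 2 or trained mouse 1 or 2 (adjusted p of 0.0575, 0.0703 and 0.0929).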

How the data were processed

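Bulk RNA-seq was made from 16 libraries of dorsal hippocampus. The authors deposited 1 table of estimated counts per library, scaled between libraries, so the values are a normalized signal and no longer whole counts. The submitters' processing notes name bcl2fastq 2.20, FastQC, Trim Galore, STAR, DESeq2 and GRCm38; the study's methods also name Salmon. The kind of scaling is not given in the sources used here. Recomputed median-of-ratios factors were 0 on the log2 scale in every library, and reads could not be recovered as whole numbers. The labels give polyA RNA as the molecule, while the named kit depletes ribosomal RNA.

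Values were tested as log2(value + 2) with limma 3.58.1 in R 4.3.3 (trend and robust empirical Bayes, two-sided), with Benjamini-Hochberg adjustment over all genes with a value of at least 10 in at least 3 libraries (CA1) or 2 libraries (CA3, DG and joint fits). Training was tested within each subregion and over all 16 libraries with subregion as a term, and subregions and interactions in a fit of 6 groups. These joint fits treated libraries of 1 mouse as independent unless a block is named. The pipeline was tested on simulated data. Alternatives changed the pseudocount, filter, scaling, model terms and libraries; those with the granule marker sum and those leaving out libraries with Xist above 1000 and Ddx3y above 50 were added after the data had been seen. Libraries of 1 mouse did not deviate together from their group means (r of -0.108 to 0.092 over 14 pairs). With groups of 2 or 3 libraries and the mouse labels in doubt, this does not show that such libraries are independent. The p-values measure the spread between these libraries. Gene positions are from GENCODE for GRCm38, where 98.0% of 24972 symbols were found. Genes named are the 6 members, up to 8 list genes per comparison with the smallest adjusted p under 0.05, the genes most correlated with each member, genes overlapping a member and sex-linked transcripts. Prox1, C1ql2, Tdo2, Stxbp6, Cpne4, Grik4, Prkcd, Slc17a6, Flt1, Slc1a2, Aqp4 and Gja1 are named as cell type markers. Ncoa1, Slco1c1, Dio3, Crebbp and Nr3c1 were also named after their values were seen where this rule did not take them. A few genes that the rule takes are not reported here. The members and lists were chosen with earlier results of these data known.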

Additional observations from a re-analysis of the deposited data

Results flagged for a closer look

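The training effect on Homer1, a postsynaptic scaffold gene, differed between CA1 and the DG by -0.66 on the log2 scale in the interaction test (limma, adjusted p = 0.00293). Homer1 was 918 to 1060 in trained and 1396 to 1542 in untrained CA1, against 1069 to 1105 in trained and 1032 to 1034 in untrained DG. The sum of 6 CA1 pyramidal markers was 1898 to 2352 in trained and 3590 to 5709 in untrained CA1. Of 6 CA3 markers, 3 were called higher and 1 lower in trained CA1, where 5.23% of all genes were called. The part of these marker differences in the result for Homer1 was not tested.

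The effect on Nefh, the heavy neurofilament gene, differed between the same subregions by 0.67 (adjusted p = 0.0375). Nefh was 284 to 299 in trained and 215 to 248 in untrained CA1, against 283 to 308 in trained and 313 and 433 in untrained DG. This call was lost in 8 of 16 alternatives. It was kept without untrained mouse 1 (0.965, adjusted p = 0.0214) and lost without any other single mouse, with values of 0.404 (without untrained mouse 3, adjusted p = 0.249) to 0.675. That of Homer1 was lost in 1 of 16.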

How the results depend on the processing

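The cause of each change below was not tested. Within a subregion, fits with the number of genes at 0, the sex-linked transcripts or the granule sum as a term used all 16 libraries. The number of members called moved as follows. In CA3, where it was 0, it was 2 in one fit of all libraries, 3 with the replicate number as a block, 2 with the number of genes at 0 as a term and 1 with the sex-linked transcripts. In the DG, where it was 1, it stayed at 1 in one fit of all libraries, with Klf9 called in place of Crym. There it was 2 with the block and 0 with genes at 0, the sex-linked transcripts or the granule sum. In the pooled comparison, where it was 2, it was 1 without a filter, 0 with the sex-linked transcripts, 1 with the granule sum, 1 without CA3 untrained 1 and DG trained 3 and 0 without all 5 libraries that held Xist and Ddx3y. For CA1 against CA3, where it was 1, it was 0 without a filter, with the animal as a block, with trained or untrained libraries alone and with genes at 0, and for CA1 against the DG 0 without a filter and with trained or untrained alone. Leaving out 1 mouse gave 1 to 2 pooled, 0 to 1 for CA1 against CA3 and against the DG, 0 to 2 in CA3 and 1 to 2 in the DG.

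Among list genes, calls were lost in 8 of 17 alternatives for Crebbp in the DG, 7 of 18 for Reln and 6 of 18 for Nefl and 4 of 18 for Nrgn in CA1 and 4 of 17 for Ttr in CA3, whose value moved to -1.88 with the sex-linked transcripts. The DG difference of Crym lost its call in one fit of all libraries (1.34), with genes at 0 (0.93), the sex-linked transcripts (2.58) and the granule sum (0.43); it was 1.29 with the replicate block and 1.09 to 1.59 on leaving out 1 mouse. The replicate number is shared only by name (r of -0.18 to 0.119 over 7 pairs). Under the number block, Klf9 in CA3 was -0.33 (adjusted p = 0.0011), Crym in CA3 0.71 and Klf9 in the DG -0.28, all called.

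Signs turned as follows. With the sex-linked transcripts, Crym in CA1 was 1.01, Thra in CA1 0.00, Thrb in CA3 -0.13, Thra in the DG 0.011, Thrb in the DG -0.15 and Crym between CA3 and the DG 0.20. With genes at 0, Crym in CA1 was 0.36, Thrb in CA3 -0.013, Thra in the DG 0.043, Crym between CA1 and CA3 0.015 and the interaction of Crym between CA3 and the DG 0.24. With the granule sum, Crym in CA3 was -0.42, Thrb in CA3 -0.007, Hr in CA3 0.02, Dio2 in the DG 0.001 and pooled Thra -0.009. With upper-quartile rescaling, Thrb in CA3 was -0.001 and Thra in the DG 0.005. Without CA3 untrained 1 and DG trained 3, pooled Thrb was 0.012, and without all 5 such libraries pooled Thrb was 0.033 and Hr 0.032. With untrained libraries alone, Crym was 0.43 between CA1 and CA3, 0.63 between CA1 and the DG and 0.19 between CA3 and the DG, and Thrb 0.005 between CA3 and the DG, or 0.043 with the animal block.

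Leaving out 1 mouse, Crym ranged from -0.42 to 0.32 between CA1 and CA3, -0.325 to 0.047 between CA1 and the DG, -0.36 to 0.47 between CA3 and the DG, -0.25 to 0.054 with training in CA1 and -1.36 to 0.30 in the interaction of CA3 with the DG. Hr ranged from -0.15 to 0.13 in CA1 and -0.29 to 0.17 in CA3, Thra from -0.01 to 0.053 pooled, -0.065 to 0.014 in CA1 and -0.049 to 0.061 in the DG, and Thrb from -0.057 to 0.024 pooled, -0.147 to 0.047 between CA3 and the DG, -0.13 to 0.16 in CA3 and -0.026 to 0.177 in the DG. Counts of called genes over all alternatives ran from 0 to 1877 in CA1 (710 as reported), 7 to 1160 in CA3 (118), 28 to 1583 in the DG (473), 0 to 1879 pooled (1517), 20 to 207 for CA1 against CA3 (145), 113 to 645 for CA1 against the DG (594) and 0 to 19 for CA3 against the DG (1). The counts of 0 in CA1 and in the pooled comparison were those with the sex-linked transcripts as a term. For the interactions they ran from 0 to 69 (4), 0 to 2039 (404) and 0 to 72 (24).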
